A study of Homo sapiens with 6 samples.

Results

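Epithelial-mesenchymal transition (EMT) was followed here through 9 genes: the transcription factors ZEB1, ZEB2, SNAI1, SNAI2, TWIST1 and TWIST2, and the mesenchymal markers VIM, FN1 and CDH2. They were measured in MDA-MB-231, a human triple-negative breast cancer cell line known for its mesenchymal character. Every probe whose transcript belongs to 1 of these genes was taken, which gave 16 of the 50599 probes on the array, for 9 of 21743 named genes. The genes were chosen for their role in EMT, with earlier results of these data known. Cells were transfected at 30 nM with a precursor of hsa-miR-205-5p, with one of hsa-miR-214-3p, or with a scrambled precursor as control, and RNA was collected after 72 h. Each group had 2 arrays, and both miRNAs were set against the same 2 control arrays. The labels do not say whether replicates came from separate cultures, so p-values measure the spread between these samples, which may be technical.

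During EMT, epithelial cells lose their junctions and apical polarity and take on a motile, spindle-shaped form. The ZEB and SNAIL zinc finger factors bind E-box motifs in the promoters of epithelial genes such as CDH1 (E-cadherin) and repress them, and the TWIST factors, of the basic helix-loop-helix class, act in the same program. miR-205, like the miR-200 family, is known to target ZEB1 and ZEB2 mRNA, and the mesenchymal markers used here are an intermediate filament protein (VIM), a matrix glycoprotein (FN1) and N-cadherin (CDH2).

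The mature sequences of both miRNAs, from RefSeq (GRCh38.p14), are shown because the seed (bases 2 to 8, in capitals) is the stretch that a miRNA mainly uses to recognise its targets. hsa-miR-205-5p lies at chr1:209432166-209432187 on the plus strand and hsa-miR-214-3p at chr1:172138816-172138837 on the minus strand.
hsa-miR-205-5p: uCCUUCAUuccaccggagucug
hsa-miR-214-3p: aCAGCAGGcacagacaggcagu
The seeds carry the same letter at 1 of 7 positions. A site that pairs with the full seed reads AUGAAGG for hsa-miR-205-5p and CCUGCUG for hsa-miR-214-3p.

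A normalized log2 signal is used throughout, which is the log2 of a probe's processed signal minus the 75th percentile of that array. It served to compare 1 probe between arrays, never one probe with another. Per array, 35.4% to 42.2% of the 58717 spots other than controls stood well above background, and 0 were saturated. Testing needed a signal well above background on each array of some group, which 9 of the 16 probes, for 7 of the 9 genes, had. A gene was called when limma gave an adjusted p under 0.05 and the change was at least 2-fold. The root mean square distance between arrays of 1 group, over all 18468 tested probes, was 0.51 for hsa-miR-205-5p, 0.34 for hsa-miR-214-3p and 0.67 for the scrambled control. Scrambled replicate 2 lay 0.58 and 0.63 from the hsa-miR-214-3p arrays, which was closer than its distance to scrambled replicate 1.

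The label of the cell line was checked against markers. All 5 markers of mesenchymal-like breast cancer lines (VIM, CD44, CAV1, AXL and PLAU) were well above background on all 6 arrays. Of 6 luminal markers, ESR1, PGR and FOXA1 were not well above background on any array, while GATA3, CDH1 and EPCAM were on all 6. The fibroblast markers DCN and PDGFRA were not well above background on any array and LUM was on 1, and of the leukocyte markers CD3E was on 0, PTPRC on 2 and CD14 on 6.

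**Figure D1:**
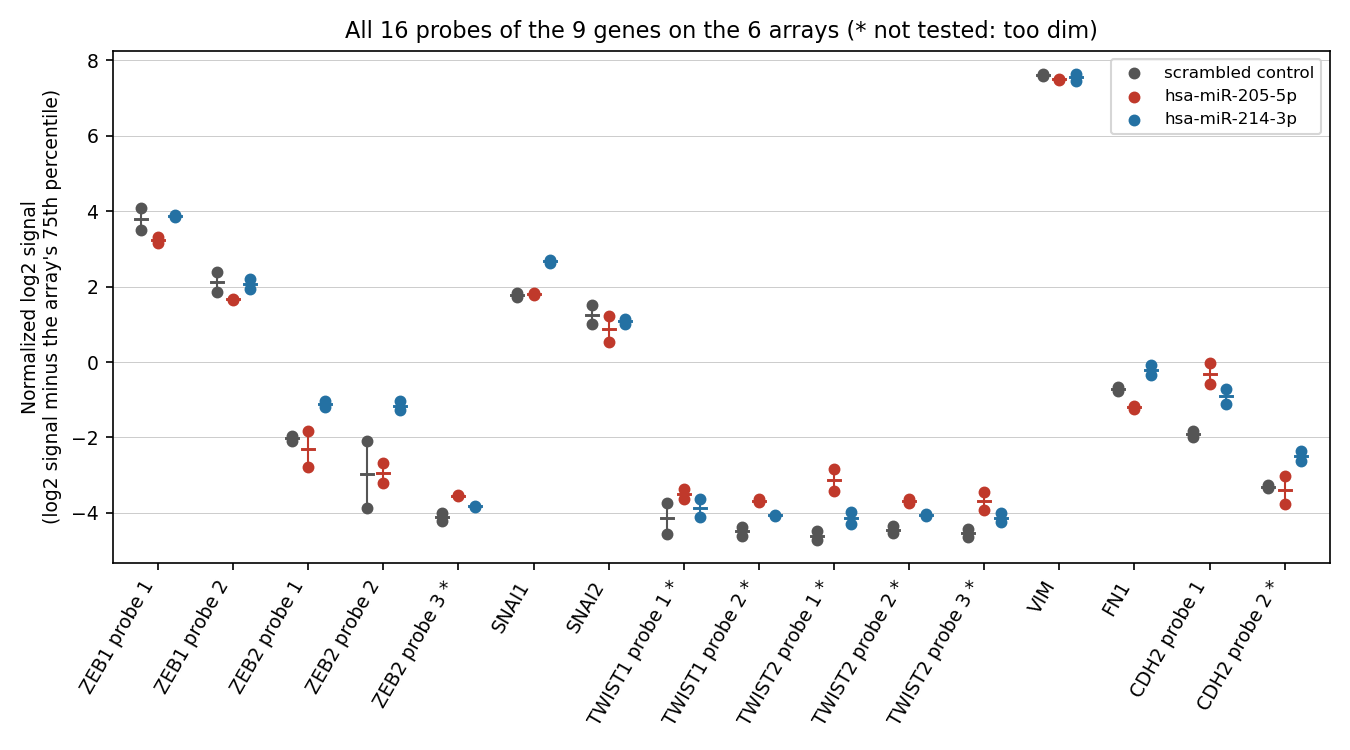
Normalized log2 signal (y axis) of all 16 probes of the 9 genes (x axis) on the 6 arrays; points are arrays, short bars the means of 2 arrays, and vertical lines join the replicates. The hsa-miR-205-5p arrays of CDH2 probe 1 (-0.58 and -0.04) sit above the scrambled arrays (-1.98 and -1.82), the hsa-miR-214-3p arrays of both tested ZEB2 probes sit highest, and VIM hardly moves.

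With hsa-miR-205-5p, 1 of the 7 tested genes was called higher, CDH2, and 0 were called lower. Over all 11974 genes tested, 4.78% were called higher and 7.98% lower. Both hsa-miR-205-5p arrays lay below both control arrays for 3 of the 7 genes (28.6% of all genes) and above them for 1 (36.6% of all genes), so that the lack of overlap is common in these data. The median log2 fold change over the 7 genes was -0.27, beside 0.08 over all genes.

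ZEB1, a zinc finger repressor of CDH1, had 2 tested probes. On the first, the signal was 3.15 and 3.31 with hsa-miR-205-5p, 3.86 and 3.90 with hsa-miR-214-3p, and 4.07 and 3.50 in the scrambled control. On the second it was 1.68 and 1.65 with hsa-miR-205-5p, 2.19 and 1.94 with hsa-miR-214-3p, and 1.87 and 2.39 in the control. On both probes the hsa-miR-205-5p arrays were the lowest and did not overlap the control arrays. The difference from the control was -0.56 ± 0.23 on the log2 scale (SE, 95% confidence interval -1.14 to 0.03, limma adjusted p = 0.148) on the first probe and -0.47 ± 0.23 (SE, -1.04 to 0.10, adjusted p = 0.197) on the second. Neither passed the test, and both intervals hold a difference of 0 as well as a 2-fold fall. With hsa-miR-214-3p the arrays lay within the range of the control arrays on both probes (0.09, interval -0.49 to 0.68, and -0.06, interval -0.63 to 0.51).

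ZEB2, its paralogue, was near the detection limit. On the first probe the signal was -2.77 and -1.82 with hsa-miR-205-5p, -1.03 and -1.18 with hsa-miR-214-3p, and -2.08 and -1.97 in the control. On the second it was -2.67 and -3.20 with hsa-miR-205-5p, -1.27 and -1.04 with hsa-miR-214-3p, and -3.86 and -2.09 in the control. The hsa-miR-214-3p arrays were the highest on both probes and did not overlap the other groups, whereas the hsa-miR-205-5p and control arrays overlapped. Neither probe was well above background on a hsa-miR-205-5p array, so that no fold against the control could be set there. The fitted difference of hsa-miR-205-5p from the control was -0.27 (interval -1.09 to 0.55, limma adjusted p = 0.579) and 0.04 (interval -1.42 to 1.50, adjusted p = 0.966). The remaining ZEB2 probe, which names a non-coding transcript, was not well above background on any array.

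SNAI1, the factor for which E-cadherin repression is best known, gave 1.82 and 1.77 with hsa-miR-205-5p, 2.64 and 2.70 with hsa-miR-214-3p, and 1.72 and 1.84 in the control. The hsa-miR-205-5p arrays lay inside the control range, and the hsa-miR-214-3p arrays stood above both other groups. The difference of hsa-miR-205-5p from the control was 0.01 ± 0.15 (SE, interval -0.37 to 0.39, limma adjusted p = 0.958), which leaves out a 2-fold change in either direction. SNAI2, also called SLUG, gave 1.22 and 0.53 with hsa-miR-205-5p, 1.15 and 1.02 with hsa-miR-214-3p, and 1.00 and 1.52 in the control. All 3 groups overlapped, and the difference of hsa-miR-205-5p from the control was -0.39 (interval -1.14 to 0.36, limma adjusted p = 0.386).

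TWIST1 and TWIST2 could not be tested. Their 2 and 3 probes were not well above background on any array, with processed signals between 2.12 and 5.85, while the lowest signal that counted as well above background lay between 9.91 and 12.97 over the arrays.

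CDH2 encodes N-cadherin, the adhesion molecule that mesenchymal cells carry in place of E-cadherin. Its tested probe gave -0.58 and -0.04 with hsa-miR-205-5p, -1.11 and -0.70 with hsa-miR-214-3p, and -1.98 and -1.82 in the control. The control arrays were lowest, those with hsa-miR-214-3p stood between, and those with hsa-miR-205-5p were highest, without overlap. CDH2 rose 3.01-fold with hsa-miR-205-5p (log2 fold change 1.59 ± 0.26, SE, interval 0.95 to 2.23, limma adjusted p = 0.0169). The neighbours in that order did not differ beyond the test: the highest group exceeded the middle one by 0.60 (limma adjusted p = 0.126), and the middle one exceeded the control by 0.99 (adjusted p = 0.108). The call was lost without hsa-miR-205-5p replicate 2 (1.32, adjusted p = 0.0755), without either hsa-miR-214-3p array and in a fit of only the 4 arrays compared (1.59, adjusted p = 0.0501 in each), and normexp background correction brought the difference to 0.53. The other CDH2 probe was not well above background on any array, so the rise rests on 1 probe. In the control, the tested probe's processed signals of 12.8 and 16.5 lay near the detection limit. The lowest signals well above background on those arrays were 10.7 and 9.94, so the size of the fold is uncertain.

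VIM and FN1 were not called. VIM gave 7.49 and 7.52 with hsa-miR-205-5p, 7.47 and 7.63 with hsa-miR-214-3p, and 7.64 and 7.58 in the control. The hsa-miR-205-5p arrays lay just under the control arrays, with a difference of -0.10 (interval -0.49 to 0.28, limma adjusted p = 0.654), which leaves out a 2-fold change. FN1 gave -1.23 and -1.16 with hsa-miR-205-5p, -0.09 and -0.34 with hsa-miR-214-3p, and -0.77 and -0.66 in the control. Its 3 groups did not overlap, with hsa-miR-205-5p lowest and hsa-miR-214-3p highest, but neither difference from the control passed the test (-0.48, limma adjusted p = 0.103, and 0.50, adjusted p = 0.168). In RNA from a whole culture, fewer cells that express a gene and less RNA per cell cannot be told apart.

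**Figure D2:**
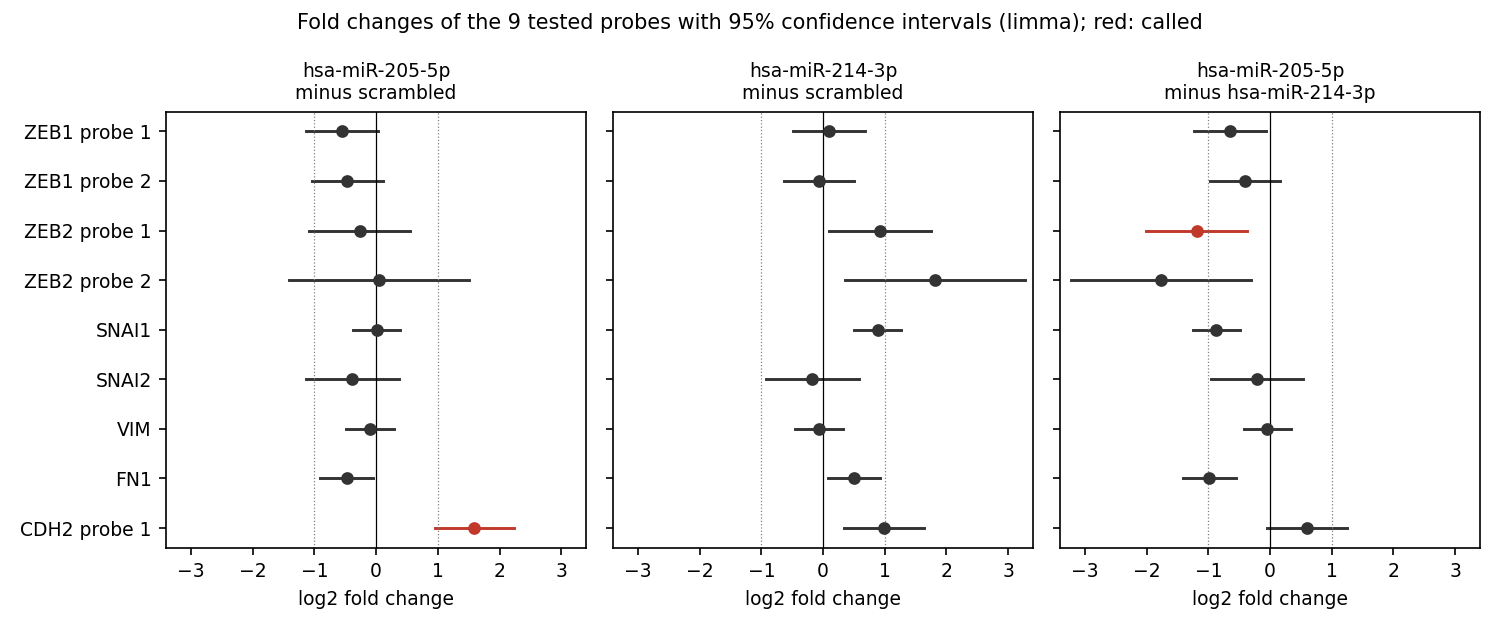
Log2 fold change (x axis) of the 9 tested probes (y axis) in the 3 comparisons, with limma's 95% confidence intervals; dotted lines mark a 2-fold change and red marks the called probes. CDH2 stands at 1.59 for hsa-miR-205-5p against the scrambled control and the first ZEB2 probe at -1.19 for hsa-miR-205-5p against hsa-miR-214-3p.

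With hsa-miR-214-3p, 0 of the 7 tested genes were called in either direction, while 1.09% of all genes were called higher and 2.03% lower. Both arrays lay above both control arrays for 4 of the 7 genes (27.7% of all genes) and below them for 0 (30.7%). The median over the 7 genes was 0.50, beside -0.01 over all genes, and 5 of the 7 lay above 0. SNAI1 had the lowest adjusted p of the 7, at 1.85-fold (log2 fold change 0.89 ± 0.15, SE, interval 0.51 to 1.27, limma adjusted p = 0.0512), and CDH2 was nearest to the 2-fold limit, at 1.98-fold (0.99, interval 0.34 to 1.63). FN1 gave 0.50 (interval 0.08 to 0.93). The first ZEB2 probe gave 0.92 (interval 0.10 to 1.74, adjusted p = 0.184) and the second 1.81 (interval 0.36 to 3.27, adjusted p = 0.155). That second probe was well above background on 1 of the 2 control arrays and on neither array of the third group, so it was tested only through the group in which it was highest. SNAI2 gave -0.18 (interval -0.93 to 0.58) and VIM -0.06 (interval -0.45 to 0.33). The lack of a call does not show that SNAI1, CDH2, FN1 and the first ZEB2 probe did not differ, since their intervals did not include 0.

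Set directly against each other, the precursors differed in 1 called gene, ZEB2, which was lower with hsa-miR-205-5p, and in 0 called higher. Of all genes, 11.3% were called lower and 9.18% higher in this comparison. The arrays did not overlap for 4 of the 7 genes with hsa-miR-205-5p lower (34.6% of all genes) and for 1 with it higher (45.7%). The first ZEB2 probe differed by -1.19 ± 0.33 (SE, interval -2.01 to -0.37, limma adjusted p = 0.0433), which counts as at least 1.43-fold lower because neither hsa-miR-205-5p array stood well above background. The second ZEB2 probe differed by -1.77 (interval -3.23 to -0.31, adjusted p = 0.0681), at least 1.37-fold lower. This second probe was tested only through the hsa-miR-214-3p group, in which it was highest, so it adds no support to the call. SNAI1 (-0.87 ± 0.15, SE, limma adjusted p = 0.0130) and FN1 (-0.98 ± 0.17, SE, adjusted p = 0.0126) also passed the adjusted p and were under the 2-fold limit. ZEB1 differed by -0.65 (interval -1.23 to -0.07, adjusted p = 0.0838) on the first probe and by -0.40 on the second. The ZEB2 call was lost without each array in turn other than hsa-miR-205-5p replicate 2, when 0 of the 7 genes were called, and with the replicate number as a block (adjusted p = 0.0554).

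Epithelial genes that ZEB and SNAIL factors are known to repress were described next, from a list chosen with earlier results of these data known, so that its counts are a description. Of 14 listed genes 7 were tested. With hsa-miR-205-5p, 4 of the 7 were called higher (CDH1, EPCAM, ESRP2 and CRB3) and 0 lower, where 4.78% and 7.98% of all genes were. Of the 4, CDH1, EPCAM and ESRP2 were well above background on all 6 arrays. CRB3 passed the filter only through the group in which it was high, and had to differ. CRB3, which sets up apical polarity, gave 1.34 and 1.31 with hsa-miR-205-5p, -3.27 and -3.25 with hsa-miR-214-3p, and -2.00 and -2.67 in the control. Its signal cleared the background limit on 1 of 2 control arrays and on neither array of the hsa-miR-214-3p group, so that its difference from the control (3.66 on the log2 scale) is given as a measured value and not as support for the list. Epithelial genes outside the list were not counted, and not all of them were higher. AP1M2, which encodes a clathrin adaptor subunit of epithelial cells and was named after its values were seen, gave -0.64 and -0.31 with hsa-miR-205-5p, 4.67 and 5.11 with hsa-miR-214-3p, and 3.07 and 4.08 in the control. AP1M2 fell by 4.05 on the log2 scale with hsa-miR-205-5p (limma adjusted p = 0.0080).

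CDH1, the defining target of the ZEB and SNAIL factors, gave 0.87 and 0.64 with hsa-miR-205-5p, -1.30 and -1.47 with hsa-miR-214-3p, and -1.09 and -1.33 in the control. It rose 3.90-fold (1.96 ± 0.18, SE, limma adjusted p = 0.0080). EPCAM, an epithelial adhesion molecule, gave 3.21 and 2.77 with hsa-miR-205-5p, 0.53 and 0.80 with hsa-miR-214-3p, and 0.35 and 0.83 in the control. It rose 5.28-fold (2.40 ± 0.26, SE, limma adjusted p = 0.0088). ESRP2, a splicing regulator of epithelial cells, gave 3.93 and 3.90 with hsa-miR-205-5p, 2.91 and 2.93 with hsa-miR-214-3p, and 2.01 and 1.64 in the control, and rose 4.24-fold (2.09 ± 0.19, SE, limma adjusted p = 0.0080). CDH1, EPCAM, ESRP2 and CRB3 were picked as called genes, so that the position of their arrays is a description and no further support. In each, both hsa-miR-205-5p arrays stood above the 4 other arrays. Over all genes, 36.6% had both hsa-miR-205-5p arrays above both control arrays.

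Among the 7 epithelial genes 0 were called with hsa-miR-214-3p, where 1.09% of all genes were called higher and 2.03% lower. CDH1 was at -0.18 (interval -0.64 to 0.28) and EPCAM at 0.07 (interval -0.57 to 0.72). ESRP2 was 2.13-fold above the control, at 1.09 (interval 0.63 to 1.56, limma adjusted p = 0.0507), just short of a call. CRB3 was at -0.93 (interval -1.55 to -0.30), with neither hsa-miR-214-3p array well above background. Between the precursors, 3 of the 7 were called higher with hsa-miR-205-5p and 0 lower, where 9.18% and 11.3% of all genes were. CDH1 (2.15, limma adjusted p = 0.0039) and EPCAM (2.33, adjusted p = 0.0050) were higher with hsa-miR-205-5p than with hsa-miR-214-3p, in a direct test. The remaining call was CRB3, at least 9.98-fold higher (limma adjusted p = 0.0038), which had to differ here too because it entered the test only through its high group, and adds no support to the count. The 4 calls against the control were kept without 5 of the 6 arrays in turn and fell to 0 without hsa-miR-205-5p replicate 2, when limma called 0 of all 11974 genes in this comparison. The array that remained, replicate 1, lay above both control arrays in each of the 4 genes (0.87 for CDH1 and 3.21 for EPCAM). Since the 4 genes were picked by a fit that included this array, its position adds no support. Normexp background correction left 3 calls, without CDH1, and the direct CDH1 call between the precursors was lost with it too. The leukocyte marker CD14 was also called higher with hsa-miR-205-5p (1.14), and the summed signal of the 4 leukocyte markers, in units of the array's 75th percentile, was 4.79 to 5.38 with hsa-miR-205-5p, 2.92 to 3.84 with hsa-miR-214-3p and 2.05 to 2.71 in the control, with CD3E not well above background on any array. Their part in the result was not tested.

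**Figure D3:**
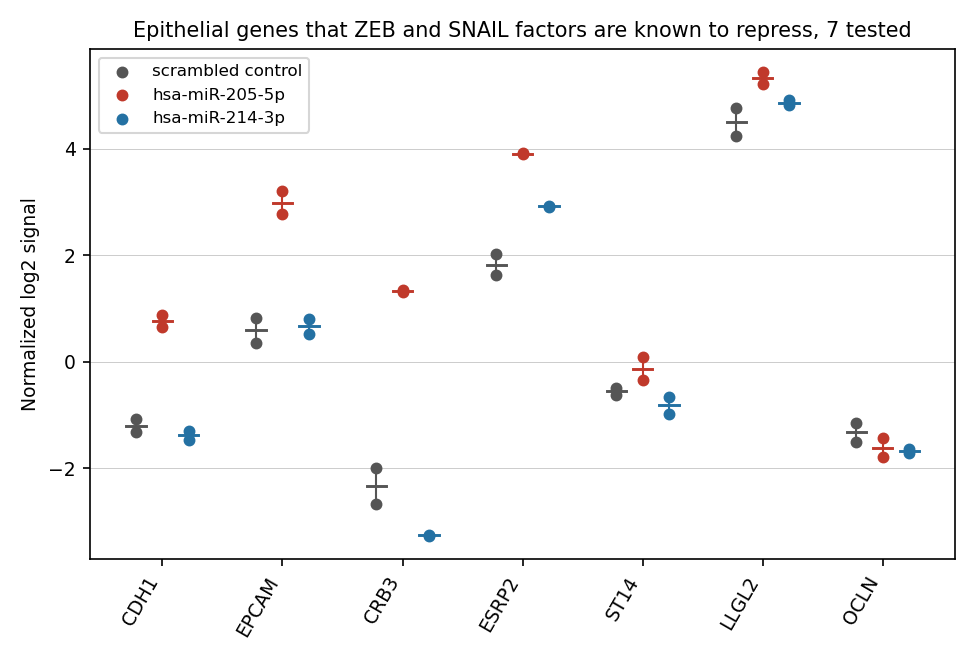
Normalized log2 signal (y axis) of the 7 tested epithelial genes (x axis) on the 6 arrays; points are arrays and short bars the means of 2 arrays. For CDH1, EPCAM, CRB3 and ESRP2 both hsa-miR-205-5p arrays stand above the 4 other arrays.

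The ZEB and SNAIL factors bind CACCTG, a form of the E-box, and other forms were not searched. The CRB3 promoter is shown because, of the 4 epithelial genes called against the control, CRB3 was the one matched in the RefSeq promoter table used. It was not chosen for the size of its difference, which its low signal in the other groups leaves uncertain. CACCTG and its reverse complement CAGGTG were searched in the 250 bases before the start of each RefSeq promoter (GRCh38.p14). The CRB3 promoter, on the plus strand of chromosome 19, held 5. The windows below put the motif in capitals, in order towards the start, at chr19:6464033-6464058, chr19:6464053-6464078, chr19:6464114-6464139, chr19:6464172-6464197 and chr19:6464201-6464226.
CRB3 E-box a: gctcgcaatgCAGGTGtaaggtcccc
CRB3 E-box b: gtccccctcaCACCTGcgcgcttccg
CRB3 E-box c: ggtcccgttaCAGGTGcgcccacagc
CRB3 E-box d: cagcgaggctCAGGTGcacaagccgg
CRB3 E-box e: tgcgctctccCAGGTGagtgactaaa
Of all 35116 promoters searched in the same way, 17.5% held at least 1 such motif, 2.53% held at least 2 and 26 (0.074%) held at least 5. A match is a stretch of letters and not a measured binding site, and binding was not measured here.

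Of 26 other mesenchymal genes, 14 were tested. With hsa-miR-205-5p, 2 were called higher and 1 lower, beside 4.78% and 7.98% of all genes, and their median was 0.08, beside 0.08 over all genes. The single lower call among 14 is near the share of all genes. With hsa-miR-214-3p, 5 were called higher and 0 lower, beside 1.09% and 2.03% of all genes, and the median was 0.58 beside -0.01. FSTL1, a secreted glycoprotein induced by TGF-beta, gave 7.17 and 7.22 with hsa-miR-205-5p, 8.01 and 8.10 with hsa-miR-214-3p, and 4.88 and 5.09 in the control. FSTL1 rose with both precursors, 4.64-fold with hsa-miR-205-5p (limma adjusted p = 0.0080) and 8.43-fold with hsa-miR-214-3p (adjusted p = 0.0251). LOX, which cross-links collagen, also rose with both, 2.19-fold (adjusted p = 0.0115) and 2.46-fold (adjusted p = 0.0310).

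TAGLN, an actin-binding protein of contractile cells, gave 1.50 and 1.46 with hsa-miR-205-5p, 3.68 and 3.77 with hsa-miR-214-3p, and 2.36 and 2.31 in the control. The hsa-miR-214-3p arrays were the highest and the hsa-miR-205-5p arrays the lowest, without overlap. With hsa-miR-214-3p, TAGLN rose 2.62-fold (limma adjusted p = 0.0275) and the collagen gene COL5A1 2.81-fold (adjusted p = 0.0370), and their second probes stood at 0.81 and 0.69 on the log2 scale, under the 2-fold limit. With hsa-miR-205-5p, TAGLN was at -0.85 against the control (limma adjusted p = 0.0201) and its second probe at -0.68 (adjusted p = 0.0497). Both passed the adjusted p and were under the 2-fold limit, so TAGLN was not called.

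ITGA5, the alpha subunit of the fibronectin receptor, gave 2.23 and 2.16 with hsa-miR-205-5p, 4.34 and 4.34 with hsa-miR-214-3p, and 3.61 and 3.83 in the control. It was the gene of this list called lower with hsa-miR-205-5p (-1.53 ± 0.16, SE, limma adjusted p = 0.0086). Like TAGLN, S100A4 (-0.90, limma adjusted p = 0.0298) passed the adjusted p downward and was under the 2-fold limit. Directly compared, 4 of the 14 genes were lower with hsa-miR-205-5p than with hsa-miR-214-3p and 0 higher, beside 11.3% and 9.18% of all genes, among them TAGLN (-2.25), ITGA5 (-2.15) and COL5A1 (-1.01, limma adjusted p = 0.0198). The COL5A1 call was lost with normexp and without any 1 of the 4 precursor arrays, and its second probe gave -0.58 (limma adjusted p = 0.129), while TAGLN and ITGA5 were called in each of these fits. The count was 3 to 5 when 1 array was left out, and 6 with quantile normalization or with scaling to the median. The calls for hsa-miR-214-3p against the control fell to 0 without each array in turn other than scrambled replicate 2, without which they were 6. For hsa-miR-205-5p the 2 calls fell to 0 without hsa-miR-205-5p replicate 2 and to 1 without hsa-miR-205-5p replicate 1 or either hsa-miR-214-3p array.

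**Figure D4:**
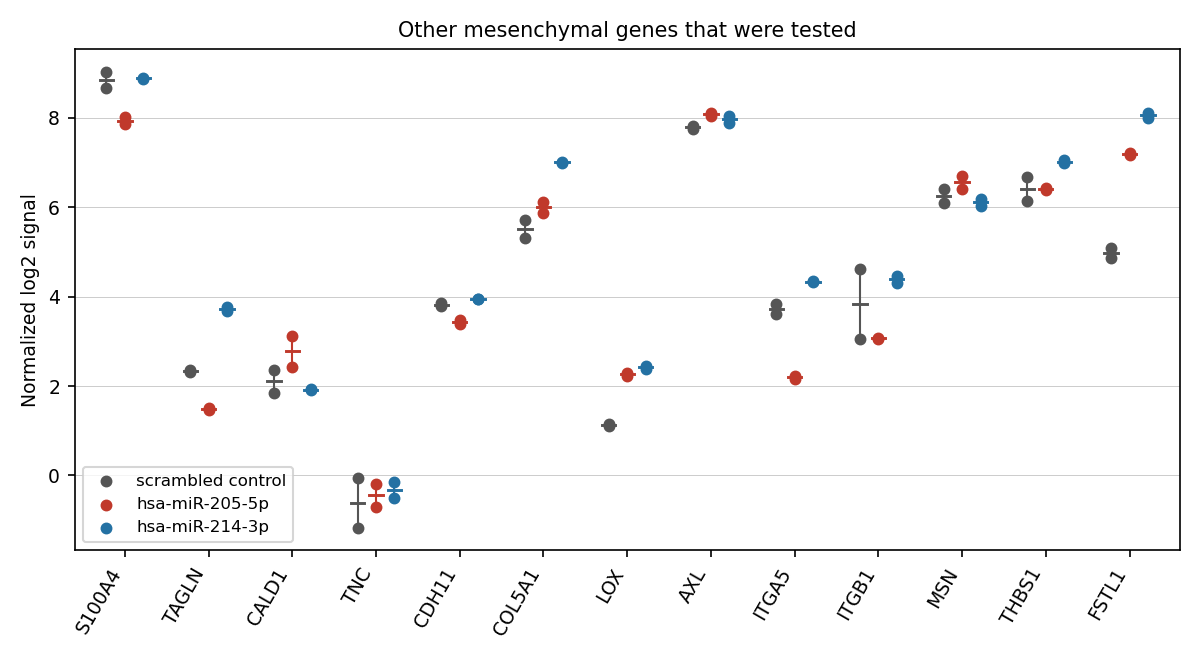
Normalized log2 signal (y axis) of 13 of the 14 tested mesenchymal genes other than VIM, FN1 and CDH2 (x axis) on the 6 arrays; points are arrays and short bars the means of 2 arrays. TAGLN and ITGA5 are lowest with hsa-miR-205-5p and highest with hsa-miR-214-3p, while FSTL1 and LOX stand above the control with both precursors.

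Of 12 other EMT transcription factors, 7 were tested, and 0 were called with hsa-miR-205-5p, where 4.78% of all genes were called higher and 7.98% lower. With hsa-miR-214-3p, 1 was called higher and 1 lower, beside 1.09% and 2.03% of all genes. FOXC1, a forkhead factor, gave -1.53 and -1.27 with hsa-miR-205-5p, -0.24 and -0.31 with hsa-miR-214-3p, and -1.97 and -1.57 in the control, and rose 2.82-fold with hsa-miR-214-3p (limma adjusted p = 0.0370). KLF8, a zinc finger factor that can repress CDH1, gave -0.69 and -1.30 with hsa-miR-205-5p, -4.27 and -3.60 with hsa-miR-214-3p, and -1.20 and -1.68 in the control. KLF8 fell at least 1.47-fold with hsa-miR-214-3p (limma adjusted p = 0.0370), where both arrays were dimmer than that limit. Its other probe was not well above background on any array, so the change of KLF8 rests on 1 probe. Between the precursors, FOXC1 was lower (-1.13, limma adjusted p = 0.0146) and KLF8 higher, at least 2.00-fold (adjusted p = 0.0053), with hsa-miR-205-5p. That is 1 of 7 in each direction, near the 11.3% and 9.18% of all genes. Without each array in turn other than scrambled replicate 2, limma called 0 of all genes with hsa-miR-214-3p against the control, these genes included.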

How the data were processed

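RNA was measured on 6 one-colour Agilent SurePrint G3 Human GE arrays of 1 slide, 2 per group, and grouped by the sample labels. The authors deposited the output of Agilent Feature Extraction 11.0 for each array, whose processed signal is a linear intensity with background subtracted, and their own processed log2 values for these arrays, in 50739 rows with identical sorted columns. In R 4.3.3, control spots and the 245 to 463 outlier spots per array were left out, spots of a probe were averaged, log2 was taken and the 75th percentile of each array (35.1 to 58.0) was subtracted. Probes were named from the accessions in the files through the RefSeq gene table (GRCh38.p14), used for names only since the array design is on another build; 83.3% of kept probes matched.

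limma 3.58.1 (lmFit, eBayes) was run on all 6 arrays, which left 3 residual and 2.47 prior degrees of freedom, with Benjamini-Hochberg adjustment over the 18468 kept probes. The brightest kept probe stood for a gene. Where both arrays of a group lacked a signal well above background, the brighter group's mean was set against, per array, the higher of the lowest signal well above background and the probe's own, written as at least N-fold. Precision is limited by the number of arrays. The fit was tested on simulated data. Plots were drawn with matplotlib.

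The 9 genes and all lists were chosen with earlier results of these data known. The text names the 9 genes, the called genes of each other list (at most 6 per list and comparison) with CDH1 and EPCAM, and the 3 genes most like each called member. S100A4, which passed only the adjusted p, was named besides. Alternatives covered background correction (normexp with an offset of 50, on the median signal since no mean signal was given), normalization, scaling, the authors' log2 table, filters, samples in the fit, a replicate block, the variance model, the test (the study's methods name a t-test), the fold limit, the probe for a gene and leaving out each array. A slide block was not run, since there was 1 slide. Genes with several probes were also run on the mean of all and on any probe. Some results for single genes are counted in their lists but not reported here by name or plotted.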

Additional observations from a re-analysis of the deposited data

How the results depend on the processing

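Of the called genes among the 9, CDH2 (hsa-miR-205-5p against control) was called under 13 of 20 alternatives and ZEB2 (between precursors) under 6 of 19, and neither changed direction. The count for CDH2 was 0 with normexp, with no filter, with only the 4 arrays compared and with the methods' t-test after Benjamini-Hochberg. The number of genes lower between the precursors was 0 with normexp, with no filter, with only probes well above background on all arrays, with the 4 arrays alone, with the replicate block, with limma's intensity trend and with the methods' t-test, unadjusted or adjusted. It was 2 with quantile normalization (FN1 and ZEB2), 3 with scaling to the median and 3 with no fold limit (FN1, SNAI1 and ZEB2 in each). When the 75th percentile was taken only over probes that every array detected it stayed at 1, but the gene was FN1 and the ZEB2 call was lost. Among other mesenchymal genes, the count higher with hsa-miR-205-5p was 1 with normexp and 1 with scaling to the median, and that with hsa-miR-214-3p was 3 with scaling to the median. Leaving out 1 array at a time gave 0 to 1 for CDH2, 0 to 1 for ZEB2, 0 to 5 for the epithelial genes with hsa-miR-205-5p, 0 to 2 for the other mesenchymal genes with hsa-miR-205-5p, and 0 to 6 for those with hsa-miR-214-3p. The causes were not tested. Of the 25 uncalled pairs of a probe and a comparison, 9 changed sign under at least 1 alternative (20 of 495 alternatives) and 4 were called under at least 1.

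Scaling to the median moved the median of all genes for hsa-miR-205-5p against control from 0.08 to -0.31, and the share of calls that were lower from 62.6% to 89.8% (82.3% with normexp). For hsa-miR-214-3p that share went from 65.0% to 86.3% (84.9% with normexp), and between the precursors from 55.2% to 73.8%. Over all genes, 243 were lower and 131 higher with hsa-miR-214-3p, and 0 were called with the replicate block or with 4 arrays alone. The numbers did not pair the arrays: replicate differences correlated between groups at 0.11, 0.01 and -0.05. Signal close to background limited ZEB2, TWIST1, TWIST2, CRB3 and, in the control, CDH2.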

Other observations

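Cofactors and turnover enzymes of the ZEB and SNAIL proteins were also measured, 13 of the 14 listed. With hsa-miR-205-5p 1 was called lower and 1 higher, with hsa-miR-214-3p 0 and 1, and between the precursors 1 lower and 1 higher. Of all genes, 7.98% were called lower and 4.78% higher in the first comparison, 2.03% and 1.09% in the second and 11.3% and 9.18% in the third, so that counts of 1 among 13 are no result about the cofactors as a list. KDM1A, a histone demethylase that SNAI1 recruits, gave -1.39 and -1.52 with hsa-miR-205-5p, 1.89 and 1.84 with hsa-miR-214-3p, and 0.78 and 1.74 in the control. KDM1A fell by 2.71 on the log2 scale with hsa-miR-205-5p (limma adjusted p = 0.0100), with 1 of the 2 arrays well above background, and its difference from hsa-miR-214-3p was -3.32. LOXL2, a lysyl oxidase that interacts with SNAI1, rose 3.03-fold with hsa-miR-205-5p (limma adjusted p = 0.0083) and 2.43-fold with hsa-miR-214-3p (adjusted p = 0.0337). HDAC1, a histone deacetylase, was higher with hsa-miR-205-5p than with hsa-miR-214-3p (1.06, limma adjusted p = 0.0077). Against the control, limma called 0 of all genes with hsa-miR-205-5p when its replicate 2 was left out, and 0 with hsa-miR-214-3p when any array other than scrambled replicate 2 was.

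For CDH2 and ZEB2, the genes with the most similar course over the 6 arrays were taken as those with the smallest root mean square difference of mean-centred log2 signals. For CDH2 they were GPRC5B (0.15), FUCA1 (0.18) and FAM135A (0.18), and for ZEB2 they were MPP4 (0.13), AXIN2 (0.17) and ITGB2-AS1 (0.18). The SD of the member over the arrays was 0.75 for CDH2 and 0.64 for ZEB2.

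The summed linear signal of the 6 luminal markers, in units of the array's 75th percentile, was 10.1 to 12.9 with hsa-miR-205-5p, 3.29 to 3.56 with hsa-miR-214-3p and 3.42 to 3.44 in the control. Of the 6, EPCAM and CDH1 were called higher with hsa-miR-205-5p, as given above, and GATA3 was not (0.31, limma adjusted p = 0.291). ESR1, PGR and FOXA1 were not well above background on any array, so the sum does not show a rise of the whole set. The summed signal of the 5 mesenchymal-like markers, in the same order of groups, was 1559 to 1563, 1218 to 1274 and 1287 to 1390. For the 3 fibroblast markers, of which 0 were tested, the sum was 0.24 to 0.283 with hsa-miR-205-5p, 0.33 to 0.331 with hsa-miR-214-3p and 0.24 to 0.273 in the control.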
